A study of Danio rerio with 13 samples.

Results

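The genes described here are *arg2*, which encodes arginase 2, and the zebrafish genes of polyamine synthesis and its control, *odc1*, *sms*, *oaz1a* and *oaz1b*. They were chosen by symbol, taking every probe set of the array whose only gene symbol in the annotation was one of 7 names. Probe sets were found for 5 of the 7 genes, 6 probe sets in all, out of 15502 probe sets and 8793 named genes. No probe set carried *srm* (spermidine synthase) or *amd1* (S-adenosylmethionine decarboxylase) as its only symbol, so both are not analysed here. The 7 genes were proposed after values of these arrays had been seen, so their own levels and differences are given as a description, with no test.

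The study asked what kinds of acute lymphoblastic leukemia (ALL) human MYC induces in zebrafish, and measured RNA of sorted GFP+ leukemia cells from 13 adult fish, each on its own Affymetrix Zebrafish Genome Array. The labels put 3 arrays in *hlk*, 4 in *hMYC-1* and 6 in *hMYC-2*. The *hlk* fish are *hlk*;*lck:eGFP*, a line that develops T cell ALL (T-ALL) without the MYC transgene. The *hMYC-1* and *hMYC-2* fish are all of the *rag2:hMYC*;*lck:eGFP* double transgenic line, in which a zebrafish *rag2* promoter, active in immature lymphocytes, drives human MYC. All 13 fish carry *lck:eGFP*, in which a zebrafish *lck* promoter drives GFP, so each sort holds cells in which that promoter was active, and the methods state that bright and dim GFP+ cells were collected as 1 sample from lymphoid and precursor gates. No tamoxifen was given to augment the MYC fusion protein. The paper reports precursor B cell ALL, T-ALL or both together in fish of the *rag2:hMYC*;*lck:eGFP* line. For these sorts it proposes T-ALL cells alone in *hlk*, a minority of B cells in *hMYC-1* and the largest B lineage share in *hMYC-2*. Aberrant marker expression is its stated alternative. Line, transgene and, on the first reading, lineage mix differ together between *hlk* and the *hMYC* groups. Their parts cannot be told apart here. The study made *hMYC-1* and *hMYC-2* by clustering these arrays, so a difference between them describes the split and is no independent evidence for it. The labels name no pools, sexes or batches, and in sorted bulk cells fewer cells of a type and less RNA per cell cannot be told apart.

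Arginase splits arginine into urea and ornithine, and *arg2* encodes the mitochondrial form. Ornithine decarboxylase, the product of *odc1*, turns ornithine into putrescine and is the rate-limiting enzyme of polyamine synthesis, and *ODC1* is a classic transcriptional target of MYC in mammals. Spermidine synthase and spermine synthase (*sms*) then add aminopropyl groups from decarboxylated S-adenosylmethionine to make spermidine and spermine. Antizymes, which *oaz1a* and *oaz1b* encode, are made by a polyamine-dependent ribosomal frameshift, bind ornithine decarboxylase and send it to the proteasome, so their activity is set after transcription. Polyamines are small cations that bind nucleic acids and are needed by dividing lymphocytes.

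All values are log2 levels that the authors made with justRMA, so 1 unit is a doubling of signal. The levels on 17 tag control probe sets, which match no zebrafish transcript, reached 5.68, and a level at or under 5.68 is called within background here. The array medians ran from 4.98 to 5.10. Across all probe sets, arrays correlated at 0.955 to 0.975 within *hlk*, 0.977 to 0.989 within *hMYC-1* and 0.983 to 0.992 within *hMYC-2* (Pearson's r). The gap between the 3′ and the 5′ probe set of the *GAPDH* control, which widens as RNA is degraded, was 4.69 on *hlk* replicate 1 and 1.09 to 2.49 elsewhere. Results that rest on *hlk* replicate 1 are therefore given with and without it. Differences between group means carry the standard error (SE) of a limma fit over the 13 arrays, and the same 3 *hlk* arrays serve both comparisons with *hlk*. A probe set is called where limma's p, adjusted over all 15502 by Benjamini-Hochberg, is under 0.05.

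*arg2* had its highest level in *hlk* T-ALL, an intermediate level in *hMYC-2* ALL and its lowest level in *hMYC-1* ALL. Its level on the 3 *hlk* arrays was 9.50, 10.52 and 10.38, a mean of 10.13 ± 0.55 (SD, n = 3). On the 4 *hMYC-1* arrays it was 5.05, 4.83, 5.41 and 6.93, a mean of 5.56 ± 0.95 (SD, n = 4). Only replicate 4 of *hMYC-1* was above background, and every *hMYC-1* array lay below every *hlk* and every *hMYC-2* array. On the 6 *hMYC-2* arrays the level was 8.37, 8.15, 8.09, 7.33, 9.92 and 8.08, a mean of 8.32 ± 0.86 (SD, n = 6) and a median of 8.12. Replicate 5 of *hMYC-2*, at 9.92, was the only one of these 6 that reached the *hlk* range, and the other 5 lay below all *hlk* arrays.

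The mean level of *arg2* in *hMYC-1* differed from that in *hlk* by −4.58 (SE 0.58), a 23.9-fold lower level. Ordered by difference among all 15502 probe sets, this was number 9 from the lowest. With 3 of the 4 *hMYC-1* arrays within background, its size was limited by the floor of the array. In *hMYC-2* the difference from *hlk* was −1.81 (SE 0.53), a 3.51-fold lower level, and the arrays overlapped. The overlap was between *hlk* replicate 1, the array with the wide *GAPDH* gap, at 9.50, and *hMYC-2* replicate 5, at 9.92. Without that *hlk* array, every *hMYC-2* array lay below *hlk* replicates 2 and 3 (10.52 and 10.38). Without *hMYC-2* replicate 5 the groups did not overlap either. Between the MYC groups, *hMYC-2* was above *hMYC-1* by 2.77 (SE 0.49), a 6.81-fold higher level, number 27 from the highest of the 15502, a size set by the same floor. Leaving out single arrays moved these differences between −5.04 and −4.34, between −2.13 and −1.61, and between 2.45 and 3.23. The neighbours in the order, *hlk* and *hMYC-2*, thus differed by more than the SD of either group, and overlapped only between *hlk* replicate 1 and *hMYC-2* replicate 5.

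**Figure D1:**
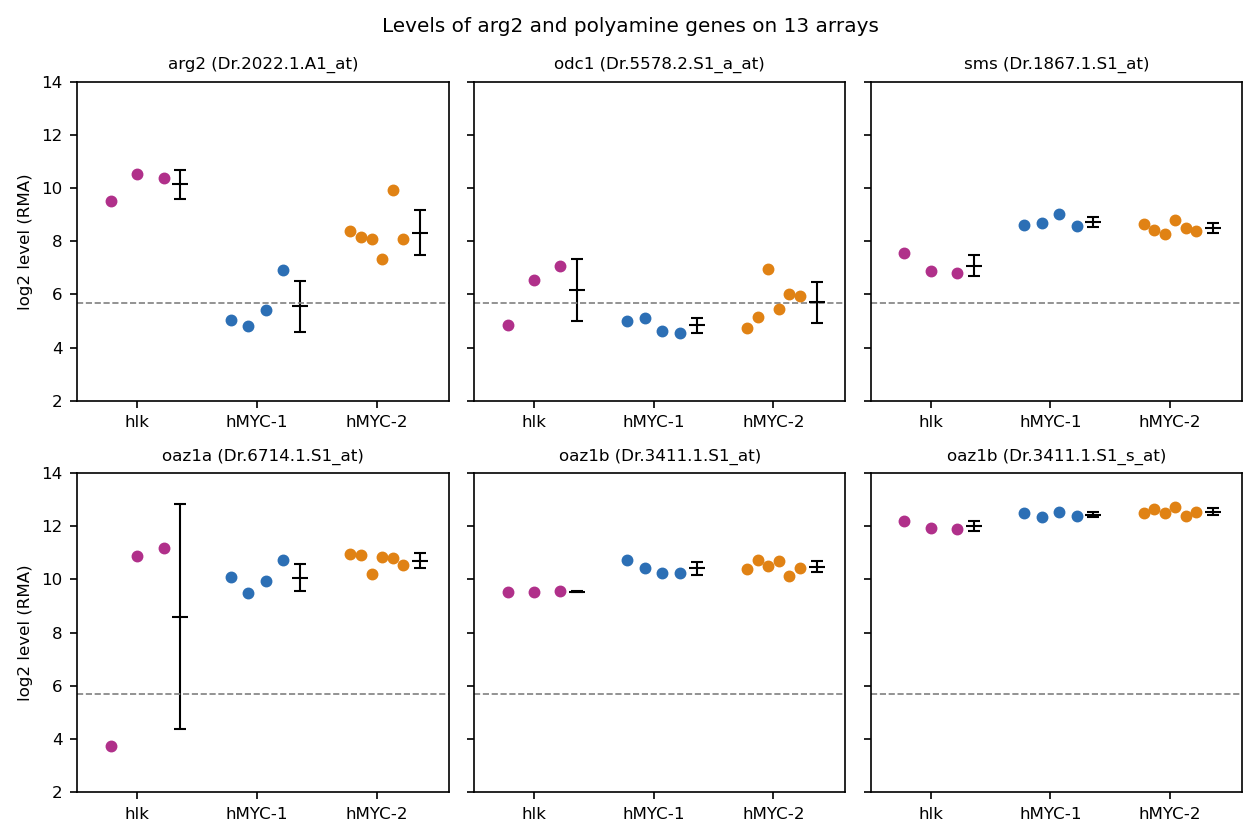
Log2 level of each of the 6 probe sets on the 13 arrays, 1 panel per probe set, with points for single arrays of *hlk*, *hMYC-1* and *hMYC-2*, bars for the group mean ± SD, and a dashed line at the background bound of 5.68. *arg2* is lowest on the *hMYC-1* arrays, while its *hlk* and *hMYC-2* arrays overlap. *sms* and *oaz1b* are higher on every *hMYC* array than on any *hlk* array, and the single *oaz1a* point at 3.74 is *hlk* replicate 1.

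*odc1*, the next enzyme of the route, was near background on most arrays. Its probe set, whose name marks it as shared by several transcripts of 1 gene, read 4.85, 6.56 and 7.07 in *hlk*, a mean of 6.16 ± 1.16 (SD, n = 3). The 4 *hMYC-1* arrays read 5.01, 5.12, 4.64 and 4.57, all within background. The 6 *hMYC-2* arrays read 4.74, 5.16, 6.94, 5.46, 6.01 and 5.95, with a mean of 5.71 ± 0.77 (SD, n = 6). Above background stood 2 of 3 *hlk* arrays, 0 of 4 *hMYC-1* arrays and 3 of 6 *hMYC-2* arrays, so all the groups overlapped. The *hlk* mean was above *hMYC-1* by at least 0.48 on the log2 scale, counted from the background bound, and the *hMYC-2* mean by at least 0.03. For *hMYC-2* the difference from *hlk* was −0.45 (SE 0.49), smaller than its SE.

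The lowest *hlk* value of *odc1* came from replicate 1, the array with the wide *GAPDH* gap. Without it the *hlk* mean was above *hMYC-1*, all within background, by at least 1.14, and the difference of *hMYC-2* from *hlk* was −1.11. Without *hlk* replicate 3 these values were at least 0.025 and 0.005, so the direction in *hMYC-2* rested on single *hlk* arrays. A level this close to the floor gave no order between *hlk* and *hMYC-2* beyond their spread.

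*sms*, at the last step of synthesis, ran the other way and was higher in both *hMYC* groups. Its level was 7.56, 6.88 and 6.82 in *hlk* (mean 7.09 ± 0.41, SD, n = 3). In *hMYC-1* it was 8.62, 8.68, 9.01 and 8.56 (mean 8.72 ± 0.20, SD, n = 4). In *hMYC-2* it was 8.64, 8.42, 8.26, 8.78, 8.51 and 8.39 (mean 8.50 ± 0.19, SD, n = 6). Every *hMYC* array was above every *hlk* array, and the *hMYC* groups overlapped each other. The difference from *hlk* was 1.63 (SE 0.18) in *hMYC-1*, a 3.10-fold higher level, and 1.41 (SE 0.17) in *hMYC-2*, a 2.66-fold higher level. Between *hMYC-2* and *hMYC-1* it was −0.22 (SE 0.15), so these neighbours did not differ beyond their spread. The differences from *hlk* ran from 1.50 to 1.87 and from 1.28 to 1.65 when single arrays were left out. The highest *hlk* level of *sms* was that of replicate 1, and without this array both differences were at the upper end of these ranges.

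The antizyme gene *oaz1b* was also higher in both *hMYC* groups, by less than *sms*. The first of its probe sets, with the suffix _at, read 9.53, 9.54 and 9.55 in *hlk*, a spread of only 0.01 (SD). In *hMYC-1* it read 10.75, 10.42, 10.26 and 10.23, and in *hMYC-2* 10.39, 10.74, 10.52, 10.68, 10.14 and 10.42. All 10 *hMYC* arrays were above the 3 *hlk* arrays. The difference from *hlk* was 0.88 (SE 0.15) in *hMYC-1* and 0.94 (SE 0.14) in *hMYC-2*, or 1.83-fold and 1.92-fold higher levels. The difference between the *hMYC* groups was 0.07 (SE 0.13).

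A second *oaz1b* probe set may also match other transcripts, as its suffix _s_at marks. It read 12.21, 11.93 and 11.89 in *hlk*, between 12.33 and 12.55 in *hMYC-1* and between 12.37 and 12.73 in *hMYC-2*. The same order without overlap held there, with smaller differences from *hlk* of 0.42 (SE 0.11) and 0.54 (SE 0.10). Both *oaz1b* probe sets thus had the same direction and differed in size, and the smaller differences came with the higher levels.

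*oaz1a*, the paralog of *oaz1b*, read high on 12 of the 13 arrays. In *hMYC-1* its level was 10.10, 9.49, 9.96 and 10.74 (mean 10.07 ± 0.52, SD, n = 4), and in *hMYC-2* 10.96, 10.91, 10.22, 10.83, 10.80 and 10.53 (mean 10.71 ± 0.28, SD, n = 6). In *hlk* it read 10.90 and 11.17 on replicates 2 and 3 but 3.74, within background, on replicate 1. The *hlk* mean of 8.60 ± 4.21 (SD, n = 3) therefore describes no array of that group. With all arrays the differences from *hlk* were 1.47 (SE 1.31) and 2.11 (SE 1.22). Without *hlk* replicate 1 they turned to −0.96 and −0.33. The *hMYC* groups overlapped and differed by 0.64, with an SE of 0.22 in a fit of these groups alone and of 1.11 in the fit over 13 arrays, which takes in the spread of *hlk*.

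The low *oaz1a* value was unusual even for *hlk* replicate 1. It was within background and at least 5.36 below the mean of the other *hlk* arrays, counted from the background bound. Of 535 probe sets with a mean of at least 10 on those arrays, 48 were lower by at least 1 on replicate 1 and 4, *oaz1a* among them, by at least 5. The plot of levels against the *GAPDH* gap shows this array alone at the right of each panel. *odc1* was also lowest of its group on this array, while *sms* was highest. The part of RNA quality in these values was not tested.

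**Figure D2:**
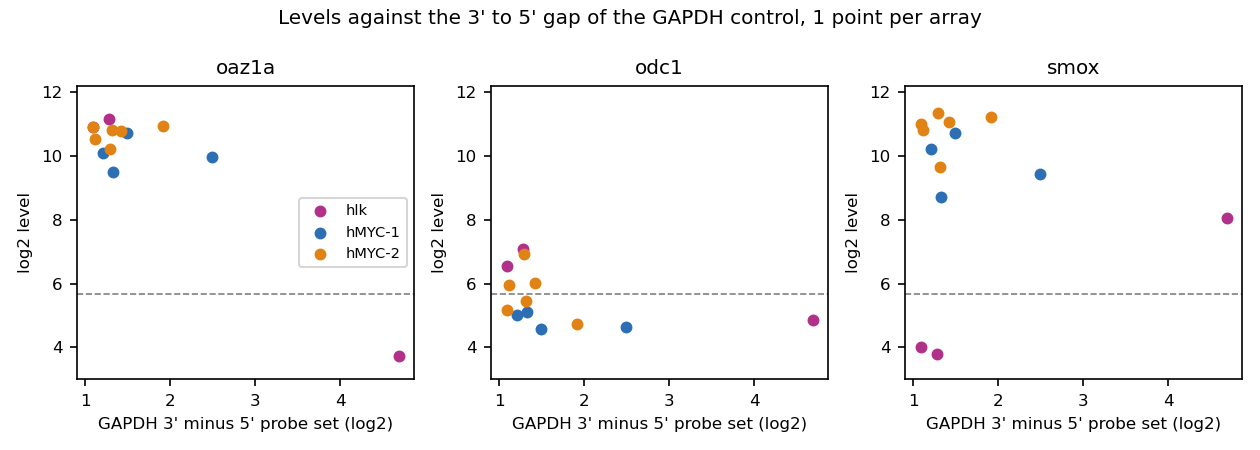
Log2 level of *oaz1a*, *odc1* and *smox* (spermine oxidase) on each array against the log2 gap between the 3′ and 5′ probe sets of the *GAPDH* control, with a dashed line at the background bound of 5.68. *hlk* replicate 1 stands alone at a gap of 4.69, where *oaz1a* is at 3.74, *odc1* at 4.85 and *smox* at 8.05.

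Counted over the 6 probe sets, 3 were higher and 1 lower in *hMYC-1* than in *hlk* past limma's threshold, where 18.8% of all probe sets were called (9.13% higher and 9.63% lower). In *hMYC-2* against *hlk* it was again 3 higher and 1 lower, where 24.7% were called (11% higher and 13.7% lower). Between *hMYC-2* and *hMYC-1* it was 1 higher and 0 lower, where 0.535% were called (0.419% higher and 0.116% lower). The arrays of the groups did not overlap for 4, 3 and 1 of the 6, beside 23.2%, 23.2% and 3.68% of all probe sets. As the genes were proposed with these values known, nothing is read from the counts. In *hMYC-2* against *hlk*, where same-numbered arrays deviated together, the differences in a fit with a replicate block were −1.93 for *arg2*, 1.35 for *sms*, and 1.01 and 0.54 for the *oaz1b* probe sets. For *odc1* and *oaz1a* they were −0.55 and 2.09. With the block the second *oaz1b* probe set was no longer past the threshold, while *arg2*, *sms* and the first *oaz1b* probe set were. These calls too are of genes proposed with the values known, so nothing is read from them. Scaling each array to equal levels of *actb1*, *eef1a1l1* and *gapdh* moved the median difference of all probe sets from −0.03 to 0.19 in *hMYC-1* against *hlk*, from −0.07 to 0.07 in *hMYC-2* against *hlk* and from −0.04 to −0.11 between the *hMYC* groups. With it the share of called probe sets that were higher went from 48.7% to 74.9%, from 44.6% to 66.2% and from 78.3% to 87.3%, and no difference of the 6 probe sets from *hlk* changed sign. The mean of these housekeeping genes was 10.74 on *hlk* replicate 1 and 10.03 to 10.45 on the other arrays, so the scaling lowered that array most. It was not run without that array, so every scaled comparison with *hlk*, here and below, rests in part on it.

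The genes around these enzymes were taken from 6 lists, of arginine and ornithine metabolism, further antizymes and their inhibitors, polyamine breakdown, transport, the eIF5A and hypusine route, and S-adenosylmethionine and methionine salvage. Of 86 listed genes 41 were measured, each shown by its probe set with the highest mean. In limma's test 5 were higher and 6 lower in *hMYC-1* than in *hlk*, and 6 were higher and 2 lower in *hMYC-2* than in *hlk*. Between *hMYC-2* and *hMYC-1* it was 3 higher and 0 lower, with 8 and 3 at limma's unadjusted p under 0.05, and 3 and 0 by the shrinkage t of the methods. Of all probe sets, limma called 18.8%, 24.7% and 0.535% in these comparisons. The same shares stand beside the counts of each single list below, and nothing is read from those counts. The median difference over the 41 genes was −0.02, −0.03 and 0.02, against −0.03, −0.07 and −0.04 over all probe sets. Leaving out *hlk* replicate 1 gave 6 higher and 6 lower in *hMYC-1* and 6 higher and 2 lower in *hMYC-2*.

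**Figure D3:**
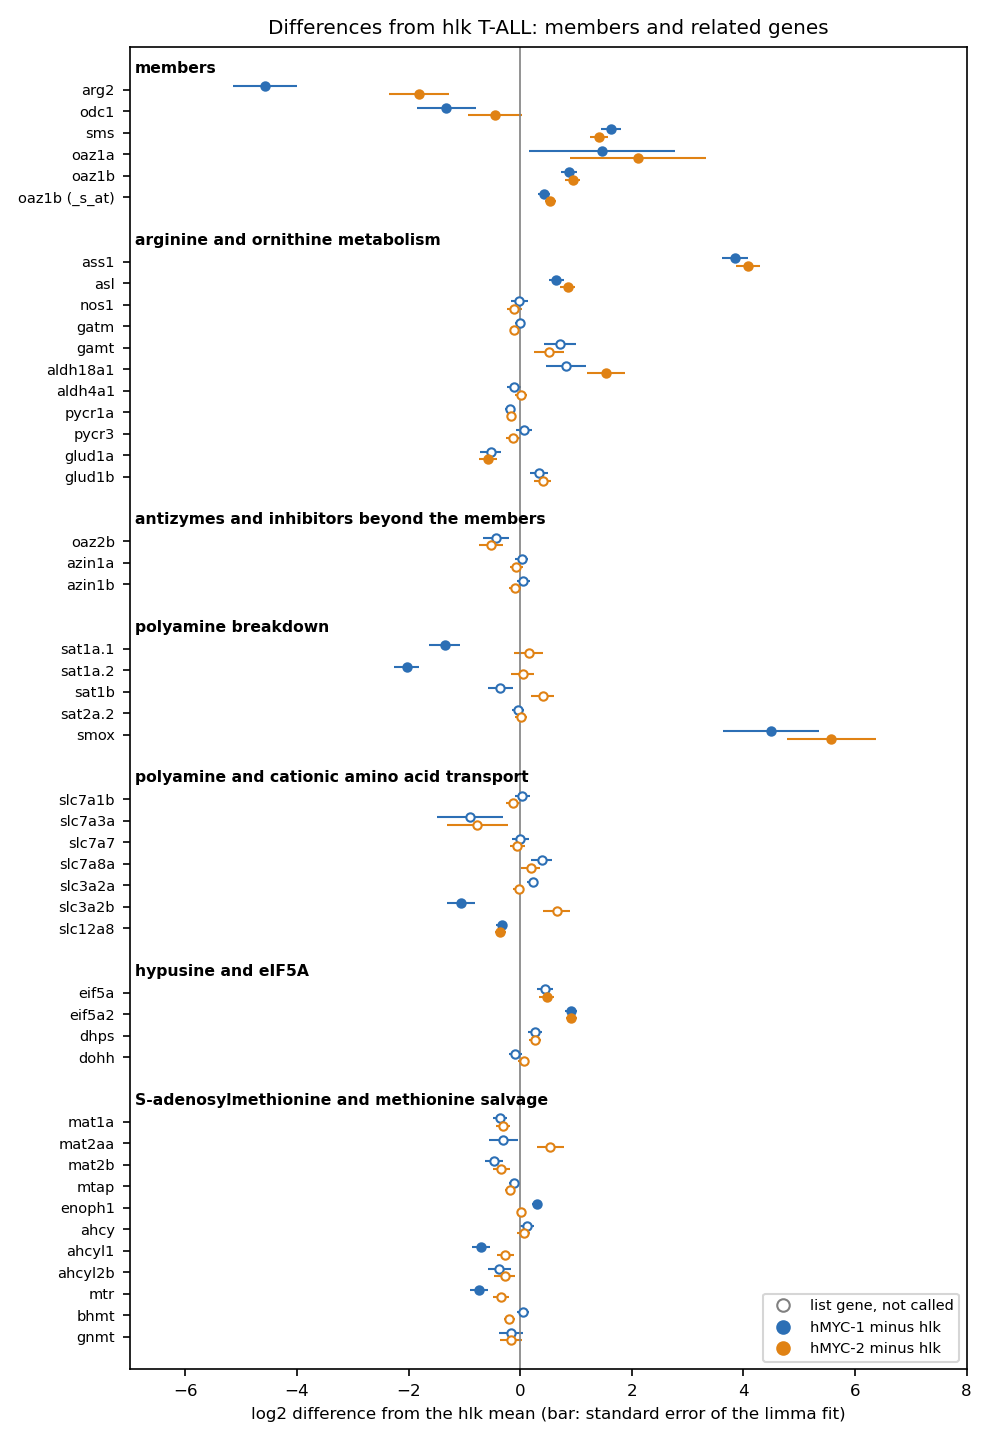
Log2 difference of each *hMYC* group mean from the *hlk* mean for the 6 probe sets of *arg2* and the polyamine synthesis genes and for the 41 list genes, with bars for the SE of the limma fit. Filled points of list genes passed limma's threshold and open ones did not, while points of *arg2*, *odc1*, *sms* and the antizymes are all filled and carry no test. *arg2* at −4.58 and *smox* at 4.49 lie on opposite sides of 0 in *hMYC-1*, and points of genes within background in a group, such as *ass1* (at least 2.30), show measured differences whose size the floor limits.

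On the arginine side, the enzymes that make arginine had the opposite direction to *arg2* in both comparisons with *hlk*. *ass1*, argininosuccinate synthase, read 3.50, 4.27 and 4.63 in *hlk*, all within background. It read 8.03, 8.36, 7.63 and 7.91 in *hMYC-1* and 7.93 to 8.43 (median 8.26) in *hMYC-2*. Every *hMYC* array was thus well above background and every *hlk* array within it. Against the background bound, its level was higher by at least 2.30 in *hMYC-1* and at least 2.53 in *hMYC-2* (log2; limma adjusted p = 1.82e-07 and 4.30e-08). *asl*, argininosuccinate lyase at the next step, was higher by at least 0.13 (limma adjusted p = 0.0054) and at least 0.33 (limma adjusted p = 0.000378), again from a level within background in *hlk*. Between *hMYC-2* and *hMYC-1*, where *arg2* was higher in *hMYC-2*, the differences of *ass1* (0.23, SE 0.20) and *asl* (0.20, SE 0.12) were not called.

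*aldh18a1*, which makes the precursor of ornithine and proline from glutamate, was higher in *hMYC-2* than in *hlk* by 1.54 (SE 0.33, limma adjusted p = 0.00474). With the replicate block this call was lost (adjusted p = 0.0758). In *hMYC-1* its difference was 0.83 (SE 0.36) and was not called. *glud1a*, a glutamate dehydrogenase, was lower in *hMYC-2* by 0.57 on the log2 scale (a difference of −0.57, limma adjusted p = 0.0247), with overlapping arrays, and this call too was lost with the block (adjusted p = 0.122). Of the 11 arginine and ornithine genes measured, of 26 listed, 2 were higher and 0 lower in *hMYC-1*, 3 higher and 1 lower in *hMYC-2*, and 0 were called between the *hMYC* groups in limma's test (1 at an unadjusted p under 0.05, 0 by the shrinkage t).

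Beyond *oaz1a* and *oaz1b*, 3 of 5 listed antizyme and inhibitor genes were measured and 0 were called in any comparison by limma or by the shrinkage t, with 1 at limma's unadjusted p under 0.05, in *hMYC-2* against *hlk*. *azin1b*, an antizyme inhibitor that frees ornithine decarboxylase from antizyme, read high in all groups on its shown probe set. Its level was 11.03 to 11.49 in *hlk*, 11.13 to 11.38 in *hMYC-1* and 10.94 to 11.28 in *hMYC-2*. The differences from *hlk* were 0.05 (SE 0.12) and −0.09 (SE 0.11). A second, dimmer *azin1b* probe set averaged 6.55 in *hlk*, 6.36 in *hMYC-1* and 6.66 in *hMYC-2*, and was not called in any comparison. The paralog *azin1a* was within background on all 13 arrays.

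Among the polyamine breakdown genes, *sat1a.2* and *smox* differed most between groups. *sat1a.2*, a spermidine/spermine acetyltransferase that marks polyamines for export or oxidation, read 11.48, 11.52 and 11.37 in *hlk* and 9.10, 9.47, 9.28 and 9.83 in *hMYC-1*. In *hMYC-2* it read 11.28, 11.67, 11.73, 10.85, 11.66 and 11.81. The *hMYC-1* arrays were thus below all others, while *hlk* and *hMYC-2* overlapped. The level was lower in *hMYC-1* than in *hlk*, with a difference of −2.04 (SE 0.22, limma adjusted p = 3.25e-05), and *hMYC-2* was above *hMYC-1* by 2.08 (SE 0.19, limma adjusted p = 0.000191). Its second probe set gave −1.80 and 1.91, both called. A probe set named for the paralog *sat1a.1* was within background on all *hMYC-1* arrays and averaged 5.68 in *hlk*, at the bound, so its call against *hlk* (limma adjusted p = 0.00444) is given no size. Its level in *hMYC-2* was above *hMYC-1* by at least 0.15 (limma adjusted p = 0.0115). It belongs to the same sequence cluster as that of *sat1a.2*, so the 2 paralogs may not be told apart, and its later call was lost without *hMYC-1* replicate 3 (adjusted p = 0.0592).

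*smox*, which oxidizes spermine to spermidine, was near background in *hlk* and high in both *hMYC* groups. It read 8.05, 4.01 and 3.80 in *hlk*, 10.22, 8.73, 9.43 and 10.73 in *hMYC-1*, and 11.24, 11.01, 11.35, 9.65, 11.08 and 10.82 in *hMYC-2*. Every *hMYC* array was above every *hlk* array, even with the high value of *hlk* replicate 1, the array with the wide *GAPDH* gap. The differences from *hlk* were 4.49 (SE 0.86, limma adjusted p = 0.00256) and 5.57 (SE 0.80, limma adjusted p = 0.000239). With that array left out, *hlk* was within background and the levels were higher by at least 4.10 and at least 5.18. A second, dimmer *smox* probe set was not called in any comparison, with differences of 1.47 (SE 0.89) and 1.88 (SE 0.83). Over the 5 breakdown genes measured, of 10 listed, 1 was higher and 2 lower in *hMYC-1*, 1 higher and 0 lower in *hMYC-2*, and 2 higher and 0 lower in *hMYC-2* against *hMYC-1*.

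Of 7 transport genes measured, of 23 listed, *slc3a2b* had the pattern of *arg2* in part. It encodes the heavy chain that carries amino acid exchangers, those of cationic amino acids among them, to the cell surface. Its level was 10.02, 9.94 and 9.93 in *hlk*, 8.84, 8.24, 9.11 and 9.43 in *hMYC-1*, and 10.78, 10.73, 10.55, 10.09, 11.07 and 10.48 in *hMYC-2*. The 3 groups did not overlap, with *hMYC-1* lowest and *hMYC-2* highest. The difference from *hlk* was −1.06 (SE 0.25, limma adjusted p = 0.0109) in *hMYC-1*, a call lost with array weights (adjusted p = 0.0759), and *hMYC-2* was above *hMYC-1* by 1.71 (SE 0.22, limma adjusted p = 0.00246). The 0.65 by which *hMYC-2* exceeded *hlk* was not called, but was called with the replicate block (0.72, adjusted p = 0.0275), with these groups fitted alone (adjusted p = 0.0299), with the filter on dim probe sets (adjusted p = 0.0454), with housekeeping scaling (adjusted p = 0.0341) and without *hMYC-2* replicate 4 (adjusted p = 0.0296). *slc12a8* passed limma's threshold as lower in both comparisons with *hlk*, but all its values were within background. *slc7a3a*, a cationic amino acid transporter, spread from 5.82 to 8.32 over the arrays and was not called in any comparison.

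In the eIF5A and hypusine route, where spermidine is the donor for the modified lysine of eIF5A, all 4 listed genes were measured. *eif5a2* read 11.10, 11.23 and 11.27 in *hlk* and between 11.86 and 12.33 on the 10 *hMYC* arrays, with no overlap. Its differences from *hlk* were 0.91 (SE 0.11, limma adjusted p = 9.31e-05) and 0.92 (SE 0.10, limma adjusted p = 3.71e-05). *eif5a* was higher in *hMYC-2* by 0.48 (SE 0.13, limma adjusted p = 0.021), a call lost with the block (adjusted p = 0.136), with these groups fitted alone (adjusted p = 0.0544) and without *hlk* replicate 3 (adjusted p = 0.0715). A second probe set of *eif5a* was called in both comparisons with *hlk* (0.43 and 0.37), and one of *eif5a2* in *hMYC-2* only (0.67 and 1.24). The enzymes of the modification, *dhps* and *dohh*, were not called.

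S-adenosylmethionine supplies the aminopropyl groups for *sms*, and 11 of 18 listed genes of its supply were measured. In *hMYC-1* against *hlk* 1 was higher and 2 lower, and 0 were called in the other comparisons by limma or the shrinkage t. At limma's unadjusted p under 0.05 it was 1 higher and 3 lower in *hMYC-2* against *hlk*, and 3 higher and 2 lower in *hMYC-2* against *hMYC-1*. *ahcyl1*, related to the hydrolase of S-adenosylhomocysteine, had a difference of −0.70 (SE 0.16, limma adjusted p = 0.00838). *mtr*, methionine synthase, was lower by at least 0.12 in *hMYC-1*, all of whose arrays were within background (limma adjusted p = 0.00595). Both calls were lost when arrays were scaled to the housekeeping genes (adjusted p = 0.121 and 0.0506). *enoph1*, of the methionine salvage route, was higher by 0.29 (limma adjusted p = 0.0255), a call that did not hold without *hlk* replicate 2, *hlk* replicate 3, *hMYC-1* replicate 2 or *hMYC-1* replicate 3 (adjusted p from 0.0577 to 0.0705). The shown probe set of *ahcyl2b* was not called, while its second one was lower in both *hMYC* groups, with differences from *hlk* of −0.93 and −0.91 (limma adjusted p = 0.000571 and 0.000293). *mat2aa*, which makes S-adenosylmethionine, was not called, though its *hMYC-2* arrays (9.96 to 11.22) lay above its *hMYC-1* arrays (9.48 to 9.70).

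The spread of *arg2* within groups was set beside the other genes array by array, as a description over 13 arrays that share group membership. With *arg2*, Pearson's r was 0.60 for *odc1*, −0.75 for *sms*, −0.67 for the first probe set of *oaz1b*, 0.86 for *sat1a.2*, 0.72 for *slc3a2b* and 0.53 for *mat2aa*. For deviations from the group means, which leave the group differences out, r was 0.16 for *odc1*, −0.37 for *sms*, −0.70 for *oaz1b*, 0.55 for *sat1a.2*, 0.80 for *slc3a2b* and 0.67 for *mat2aa*. Values of like or larger size with the other sign were −0.88 for *mat2b*, −0.83 for *nos1*, which was within background on all arrays, and −0.81 for *asl*. Within *hMYC-1*, replicate 4 was the highest of its group in *arg2* (6.93), *sat1a.2* (9.83) and *slc3a2b* (9.43). Within *hMYC-2*, replicate 5 was the highest in *arg2* (9.92), *slc3a2b* (11.07) and *mat2aa* (11.22), and replicate 4 the lowest in *arg2* (7.33), *sat1a.2* (10.85), *slc3a2b* (10.09) and *smox* (9.65).

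**Figure D4:**
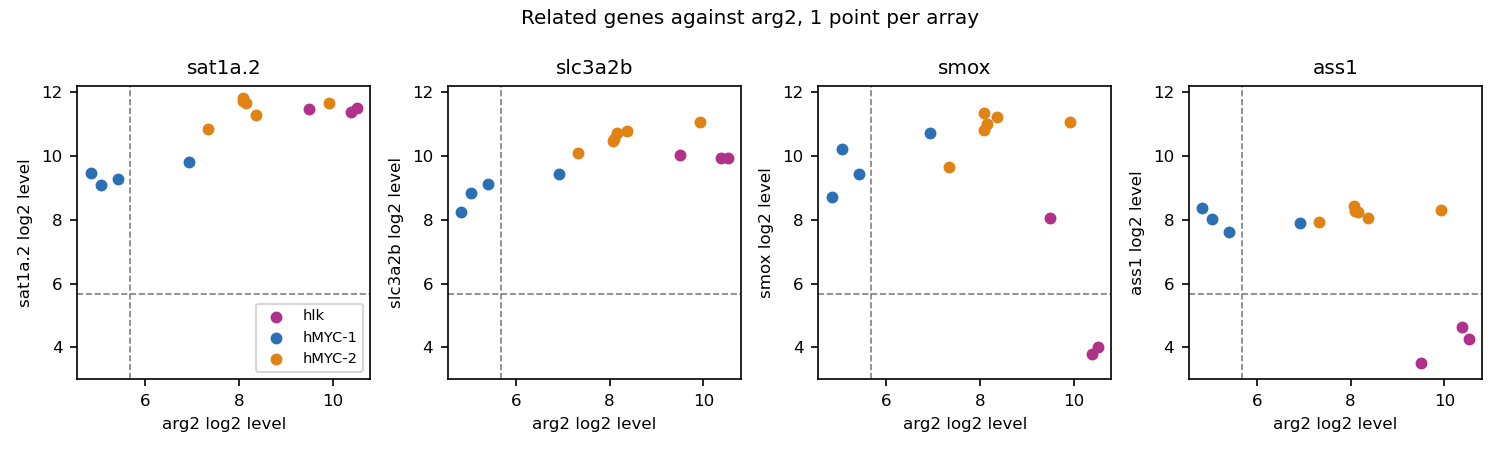
Log2 levels of *sat1a.2*, *slc3a2b*, *smox* and *ass1* against the log2 level of *arg2*, 1 point per array, with dashed lines at the background bound of 5.68 on both axes. *sat1a.2* and *slc3a2b* are lowest on the *hMYC-1* arrays, where *arg2* is lowest, while *ass1* is within background only on the 3 *hlk* arrays, where *arg2* averages 10.13.

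Among the other 8792 named genes, the 5 whose levels over the 13 arrays were most like *arg2* were *tomm34* (r = 0.907), *lysmd2* (r = 0.902), *brd2a* (r = 0.897), *ddx5* (r = 0.890) and *abcf2a* (r = 0.888). Their group means had the order of *arg2*, with *hMYC-1* lowest and *hlk* highest, over a smaller range. A choice by r over all arrays favours such a shared order, so nothing is read from it. For deviations from the group means, their r with *arg2* ran from 0.60 (*lysmd2*) to 0.74 (*ddx5*). For *ddx5* and *abcf2a* the *hlk* mean was barely above that of *hMYC-2* (9.30 against 9.19 for *abcf2a*), with overlapping arrays. *tomm34*, a cochaperone of mitochondrial import, had group means of 7.38, 6.17 and 6.78 in *hlk*, *hMYC-1* and *hMYC-2*, and *ddx5*, an RNA helicase, had 10.61, 8.82 and 10.57. The 5 most like *odc1* were *gpt2* (r = 0.893), *calr3b* (r = 0.837), *vcp* (r = 0.836), *arf5* (r = 0.829) and *lhx9* (r = 0.827). Of these, *gpt2* and *lhx9* were within background on all arrays, and *calr3b* exceeded it only on *hlk* replicate 3 (5.99) and *hMYC-2* replicate 3 (5.88). The likeness of these genes to *odc1* is thus one of values near the floor. *vcp*, an ATPase that extracts ubiquitinated proteins, and *arf5*, a small GTPase, were well above it.

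Cells other than lymphoblasts in the sort were looked for with marker lists, since myeloid cells also make arginase in mammals. Of 11 neutrophil markers 6 were measured, and their mean level per array was 4.88 to 5.49 in *hlk*, 5.12 to 5.32 in *hMYC-1* and 5.06 to 5.38 in *hMYC-2*. The defining marker *lyz* (lysozyme) was within background on all 13 arrays, and *mpx* (myeloperoxidase) exceeded 5.68 on 1 array only, at 5.80 in *hlk*. Of 12 macrophage markers 6 were measured, with mean levels of 5.20 to 5.52, 4.84 to 5.71 and 4.74 to 4.93, and *marco* and *csf1ra* were within background on every array. *srgn*, of the neutrophil list, was above background on 12 arrays, with group means of 6.61 in *hlk*, 7.63 in *hMYC-1* and 7.94 in *hMYC-2*. *cd68*, of the macrophage list, was above background on all, at 10.08 to 10.40 in *hlk*, 9.44 to 9.81 in *hMYC-1* and 9.50 to 9.84 in *hMYC-2*, so every *hlk* array was above every *hMYC* array. *ctsba* was above background on 2 of 3 *hlk* arrays (4.51 to 8.22), on 2 of 4 *hMYC-1* arrays (4.20 to 8.85) and on 0 of 6 *hMYC-2* arrays (4.15 to 4.43). The part of such cells in the level of *arg2* was not tested.

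Lineage and immediate early genes also differed between some of the groups. The B lineage ranges of *hMYC-1* and *hMYC-2* overlapped, as did the immediate early ranges of *hlk* and *hMYC-1*. The mean level of 7 measured B lineage markers, of 11 listed, was 6.04 to 6.25 in *hlk*, 9.26 to 10.56 in *hMYC-1* and 10.09 to 10.41 in *hMYC-2*. For 4 measured T lineage markers, of 13 listed, it was 7.86 to 9.63, 6.63 to 7.58 and 5.42 to 6.41. The measured ones were *rag1*, *rag2*, *runx3* and *gata3*, and the paper lists *rag1* and *rag2* as lymphoblast genes. In *hlk*, *rag1* spread from 5.50, within background, to 11.16. Of these 4, *rag2*, which immature B cells also express, had another order, with group means of 6.64, 7.66 and 7.24. The mean level of 8 measured immediate early genes, of 10 listed, was 8.16 to 8.34 in *hlk*, 6.37 to 8.42 in *hMYC-1* and 9.75 to 10.55 in *hMYC-2*, and such genes also respond to cell dissociation. Its correlation with *arg2* over the 13 arrays was r = 0.47, and 0.36 for deviations from group means. The part of lineage and of handling in the levels of *arg2* and its related genes was not tested. Against *hlk*, lineage cannot be told apart from line and transgene. Of 9 measured genes of the zebrafish MYC family, of 14 listed, 0 were higher and 2 lower in *hMYC-1* than in *hlk*, 1 higher and 3 lower in *hMYC-2* than in *hlk*, and 1 higher in *hMYC-2* against *hMYC-1*, by limma. The shares of all probe sets called there were 18.8%, 24.7% and 0.535%. *myca*, a zebrafish ortholog of MYC, had differences from *hlk* of −5.57 (limma adjusted p = 1.58e-06), with 3 of 4 *hMYC-1* arrays within background, and −3.74 (limma adjusted p = 1.97e-05). *myclb* was lower by at least 1.85 in *hMYC-1*, all within background (limma adjusted p = 0.000171), and its difference in *hMYC-2* was −2.24 (limma adjusted p = 0.000259). Only 1 of 6 *hMYC-2* arrays was above background for *myclb*, so the floor limits this size too. *mych* was higher in *hMYC-2* than in *hlk* by 2.87 (SE 0.53, limma adjusted p = 0.00163). *mxd4*, of the MXD family that competes with MYC for MAX, had a difference of −1.21 in *hMYC-2* (SE 0.36, limma adjusted p = 0.0262), a call lost without *hlk* replicate 2 (adjusted p = 0.117), with array weights (adjusted p = 0.0764) and with housekeeping scaling (adjusted p = 0.0637).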

How the data were processed

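GFP+ ALL cells of 13 adult fish (3 *hlk*, 4 *hMYC-1* and 6 *hMYC-2* arrays, grouped and numbered by the sample labels) were measured on 3′ expression arrays. Per probe set, the authors deposited log2 levels from justRMA (background correction, quantile normalization over the whole dataset and a probe set summary). Only that table was used, so its normalization was not repeated, and a shift common to all genes would not be seen. The number of arrays limits the precision. Each array is another fish, so p-values measure the spread between fish.

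After removal of 115 control probe sets, 15502 were tested with limma 3.58.1 (lmFit and eBayes, R 4.3.3) in 1 fit with a mean per group and Benjamini-Hochberg adjustment at 0.05. Of these, 10795 carry 1 gene symbol, 135 several and 4572 none, and symbols were updated through gene IDs (10711 matched, 1 changed). A gene is shown by its probe set with the highest mean. Where every array of a group was at or under 5.68, a difference from a brighter group is given as at least that group's mean minus 5.68. No sequences or coordinates were used.

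These genes and lists were chosen with earlier results of these data known. The text names every one of these genes, each gene of these pathway lists that was called in any comparison without overlap between arrays, and the 5 genes most correlated with *arg2* and with *odc1*. *glud1a*, *slc7a3a*, *azin1a*, *azin1b*, *mat2aa*, *mat2b*, *nos1*, *ahcyl2b*, *dhps* and *dohh* were added after their values were seen. The marker lists also covered erythroid cells, thrombocytes, NK cells, hepatocytes, kidney tubule, muscle, skin, exocrine pancreas and intestine, and endothelium and fibroblasts. Few genes were measured in some of them, with 1 of 7 listed for NK cells (*nkl.4*) and 3 of 4 for thrombocytes. For kidney tubule it was 4 of 6, and for endothelium and fibroblasts 4 of 8. None of these 9 lists had a mean level per array above 5.79, within a range from 3.11. Such means hide single genes. *actc1b* (muscle) and *ela2* (exocrine pancreas) were above background on every array. *hbaa1* (erythroid) was above it on 1 of 3 *hlk*, 3 of 4 *hMYC-1* and 6 of 6 *hMYC-2* arrays, up to 8.53. Some other markers were above it on part of the arrays. Same-numbered *hMYC-2* and *hlk* arrays deviated together from their group means (r = 0.32, 0.23 and 0.24), though no label states a shared day. The main fit did not pair them, and a replicate block was run only as an alternative. The pairs of *hMYC-1* with *hlk* gave −0.15, 0.10 and −0.13, while *hMYC-2* paired with *hMYC-1* gave −0.32, 0.17, −0.16 and −0.05. Alternatives were a fit of each pair of groups alone, a trended and robust prior, array weights, a filter on dim probe sets, a further quantile normalization, scaling to housekeeping genes, a replicate block, group medians, the mean of all probe sets of a gene, leaving out each array, and the shrinkage t of the methods with a local false discovery rate, written here from the published formulas. The steps were tested on simulated data.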

Additional observations from a re-analysis of the deposited data

Results flagged for a closer look

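*smox* on *hMYC-2* replicate 4 stood apart from the other 5 *hMYC-2* arrays, at 9.65 against a nearest value of 10.82 (log2 level), a gap of 0.688 of the group's whole range. It was the only one past Dixon's critical value for its group size among 46 sets of values looked at, and chance gives about 1 in 20 such sets. These sets were of the *hMYC* groups only, as *hlk* has too few arrays for the critical values used and was not screened. The difference from *hlk* was not the same in both *hMYC* groups for *sat1a.2* (2.08 higher in *hMYC-2*, limma adjusted p = 0.000191), *slc3a2b* (1.71, adjusted p = 0.00246), *sat1a.1* (measured as 1.50, at least 0.15 counted from the background bound, adjusted p = 0.0115) and *myca* (1.83, adjusted p = 0.048), all in limma's test of *hMYC-2* against *hMYC-1*. For *slc3a2b*, every *hMYC-1* array was also below and every *hMYC-2* array above the *hlk* mean, and these opposite signs were not themselves tested. The *hMYC* groups come from clustering these arrays, so such differences describe the split. Without *hMYC-1* replicate 3 the call of *sat1a.1* was lost (adjusted p = 0.0592). The call of *myca* was lost with the shrinkage t (local false discovery rate 0.331), with these groups fitted alone (adjusted p = 0.0679), without *hMYC-1* replicate 1 or 3 and without any single *hMYC-2* array (limma adjusted p from 0.0708 to 0.121 over these 8 fits), and with a replicate block (adjusted p = 0.345).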

How the results depend on the processing

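Probe sets called in *hMYC-1* against *hlk* numbered 2909 in the main setting, 1879 with those groups fitted alone, 692 with a replicate block and 1184 with the shrinkage t. In *hMYC-2* against *hlk* they numbered 3822, and 2538 with the filter on dim probe sets, 1647 with the block and 961 with the shrinkage t. Between *hMYC-2* and *hMYC-1* they numbered 83, and 153 with array weights, 55 with housekeeping scaling and 2 with the block. Leaving out 1 array gave 2360 to 3020, 3320 to 3846, and 40 (without *hMYC-1* replicate 3) to 99, with 49 and 51 without *hMYC-2* replicates 2 and 3. Of the list genes, those higher in *hMYC-1* went from 5 to 1 (block) and 2 (shrinkage t), and those lower from 6 to 3 (housekeeping), 2 (block) and 3 (shrinkage t). Those lower in *hMYC-2* than in *hlk* went from 2 to 1 with array weights or the dim filter, to 0 with housekeeping scaling, the block or the shrinkage t, and to between 2 and 4 when 1 array was left out (4 without *hlk* replicate 3). Those higher in *hMYC-2* against *hMYC-1* went from 3 to 0 with the block. The numbers of *hMYC-1* arrays did not pair with those of the other groups, so its block counts come from arrays that share only a number. The cause of these changes was not tested.

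For the first *oaz1b* probe set the difference from *hlk* was 1.09 in *hMYC-1* with housekeeping scaling, and the mean of both its probe sets gave 0.65 in *hMYC-1* and 0.74 in *hMYC-2*. Its second probe set gave 0.63 and 0.67 with housekeeping scaling, and 0.65 and 0.74 as the mean of both. For *oaz1a* the medians gave −0.87 and −0.085, and leaving out 1 array gave −0.96 to 2.75 and −0.33 to 3.39, the negative values without *hlk* replicate 1. Of the other values of *arg2*, *odc1*, *sms*, *oaz1a* and *oaz1b*, 154 with 1 array left out and 105 under other settings moved by less than the spread between arrays. That bound is wide, as leaving out 1 array moves a mean by little next to it. The difference of *odc1* in *hMYC-2* from *hlk* is among these values, though it ran from −1.11 to 0.005. No stability is read from these counts. For single list genes, 416 of the values with 1 array left out kept their side of the threshold, 21 lost a call and 5 gained one. Under the other settings it was 348, 41 and 10. In *hMYC-2* against *hlk* the block also made *sat1b* called (0.69, adjusted p = 0.0463) and lost *slc12a8* (adjusted p = 0.106), and beside these and the calls given in the results it changed no call of the 6 lists. With the shrinkage t, *smox*, *asl*, *slc3a2b* and *mtr* in *hMYC-1* and *aldh18a1* in *hMYC-2* were no longer called (local false discovery rate 0.0925 to 0.176), nor were *slc12a8*, *enoph1* and *eif5a* (0.485 to 0.933). Levels near 5.68 limit what can be said of *odc1*, *asl*, *mtr* and *sat1a.1*.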
